A study of Mus musculus with 8 samples.

Results

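Cadherins and protocadherins are the adhesion proteins of the cadherin superfamily whose gene symbols are Cdh followed by a number or begin with Pcdh. By that rule, 57 of the 19938 mouse genes that a probe set names alone were members, namely 23 cadherin and 34 protocadherin genes, read by 61 probe sets. They were measured in E14 cells, a feeder-independent line of mouse embryonic stem cells (ESCs) grown with leukaemia inhibitory factor. The shKdm2b group carried a lentiviral shRNA against Kdm2b and was sampled 4 times, at passages 27 to 30, and the shScr group carried a scrambled shRNA and was sampled 4 times, at passages 28 to 31. Each sample was hybridised to 1 Affymetrix Mouse Gene ST array, and each group rests on 1 shRNA sequence with no separately derived line named for any replicate, so that p-values reflect how the sampled cultures varied and carry no information on other shRNAs. The shRNA sequences are shown because they define the groups, and where in the gene the first one lies was not determined here.
shKdm2b: cgctgtggaaatatctgtcat
shScr: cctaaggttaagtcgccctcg

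Classical cadherins join cells by binding the same cadherin on the neighbouring cell in the presence of calcium, and hold the actin cytoskeleton through beta-catenin and alpha-catenin. Type I members such as E-cadherin (Cdh1) and N-cadherin (Cdh2) build strong adhesive contacts, type II members are used mainly in brain, vessels and mesenchyme, and most protocadherins serve contacts between neurons, where the clustered genes give single cells a surface identity. E-cadherin is the main cadherin of ESCs, and N-cadherin takes its place when cells form mesoderm or neural tissue. KDM2B is a protein that binds CpG dinucleotides without DNA methylation and is part of a polycomb complex of the PRC1 type at CpG islands. The comparison asks which of these adhesion genes change their mRNA when Kdm2b is depleted.

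Kdm2b mRNA, the check of the labels, read 8.68, 9.12, 9.45 and 8.91 on the log2 scale in shKdm2b replicates 1 to 4, against 10.74, 11.10, 11.34 and 11.20 in shScr replicates 1 to 4. The groups did not overlap. The 9 pluripotency markers were bright on every array, with mean log2 signals of 13.17 to 13.21 over the list in shKdm2b cells and 12.85 to 13.14 in shScr cells, and none of them met the rule for a change. All 9 had positive log2 fold changes, however (0.03 to 0.43, median 0.19, against a median of 0.05 over all genes). In 4 of the 9 every shKdm2b array lay above every shScr array, which held for 11.8% of all genes. All values below are log2 signals after the authors' RMA, which brings the probe intensities of all arrays to a common distribution before they are summarised. In these units, signals of different genes depend on their probes, so that a difference in signal between members says how bright a probe set is and not how abundant an mRNA is. A gene was called changed by the rule of the study's methods, which asks that a majority of its probe sets have an adjusted p under 0.05 in limma and that the most significant one change at least 1.5-fold.

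Of the 57 members, 1 was called lower in shKdm2b cells, Cdh2, and 0 were called higher. Over all genes, 1.43% were called lower and 1.42% higher, so that the share of members called was close to the background in both directions. At an adjusted p under 0.05 from limma with no minimum on the fold, 3 members were higher (Cdh22, Cdh3 and Cdh23), or 5.26% of members against 5.93% of all genes, and 1 was lower, or 1.75% against 4.80%. At an unadjusted p under 0.05, 3 members (5.26%) were higher and 4 (7.02%) lower, against 16.8% and 13.6% of all genes. The shKdm2b arrays lay wholly above the shScr arrays in 3 members, or 5.26%, against 11.8% of all genes, and wholly below them in 4 members (Cdh2, Cdh1, Cdh11 and Pcdh18), or 7.02%, against 9.18% of all genes.

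Most members had small differences with narrow intervals. The log2 fold change was positive in 30 and negative in 27, with a median of 0.01, against 0.05 over all genes, and it was smaller than 0.15 in either direction in 46 members, or 80.7%, against 60.0% of all genes. In 49 of the 57 members, or 86.0%, against 86.8% of all genes, the 95% confidence interval lay wholly within a 1.5-fold change in either direction. Their probe sets were dim, however. The mean log2 signal of 48 members was below the median of all probe sets, 8.49, and that of 23 was below the lower quartile, 7.03. RMA compresses the fold change of dim probe sets, so that narrow intervals there limit the change in signal and not the change in mRNA.

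**Figure D1:**
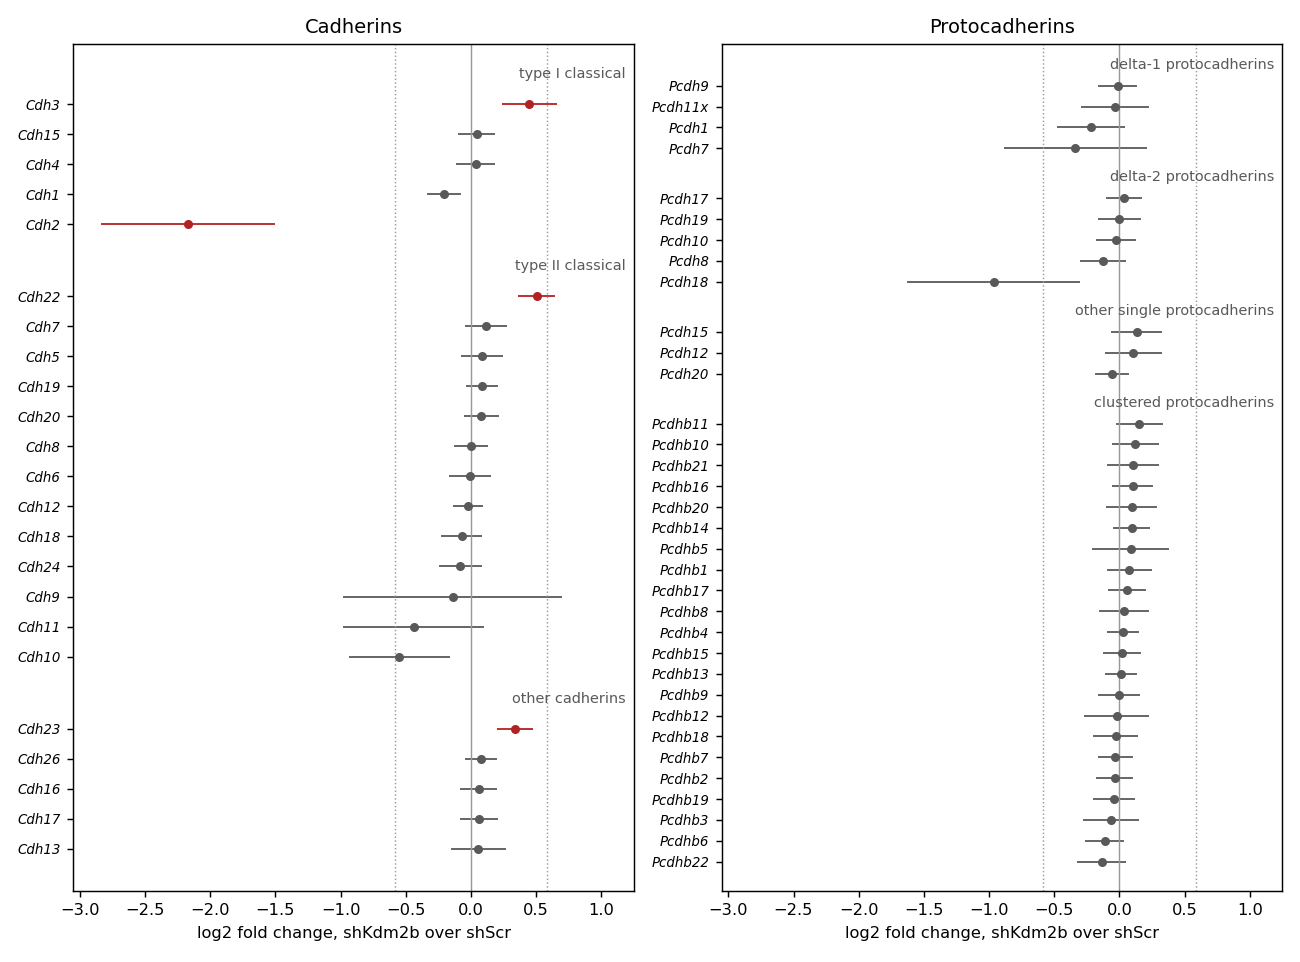
Log2 fold change (shKdm2b over shScr, x axis) of all 57 members, by class, with points for the estimate and lines for the 95% confidence interval from limma (n = 4 arrays per group). Red marks the 4 members with an adjusted p under 0.05, and dotted lines mark a 1.5-fold change. Cdh2 stands apart at -2.17, and the clustered protocadherins lie between -0.14 and 0.15.

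**Figure D2:**
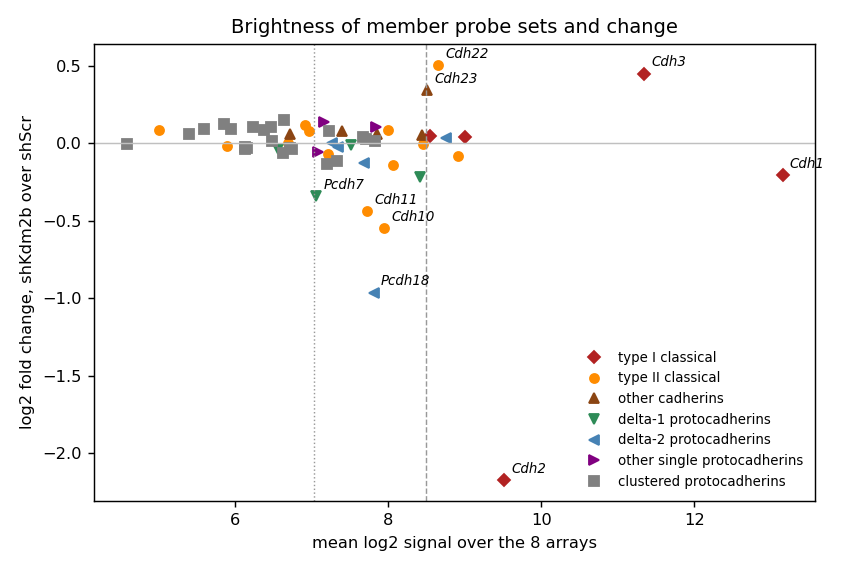
Log2 fold change (shKdm2b over shScr, y axis) against the mean log2 signal over the 8 arrays (x axis) for the 57 members, 1 point per gene, with symbols for the classes. The dotted and dashed lines mark the lower quartile (7.03) and the median (8.49) of all probe sets. All 22 clustered protocadherins lie left of the dashed line.

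Promoter windows from RefSeq (build GRCm38.p6), cut to the 250 bases before the annotated start, were examined for 22 of the 57 members. Cdh2, Pcdh1, Pcdh12 and all clustered protocadherins were left out of this set, which does not mean that they lack a window. The counts and shares of members below hold for the 22 alone and say nothing on the promoter of Cdh2, the only member called. The CpG dinucleotide, written CG and read alike on both strands, is the unit that the KDM2B zinc finger recognises, and it was counted in these windows. All 32851 windows of the table held a median of 6 CpGs (quartiles 2 and 16), and 92.1% held at least 1. At least 16 CpGs were found for 9 of the 22 members, or 40.9%, against 25.4% of all windows. A member with several windows was counted by its richest one, while all windows were counted singly, which raises the share of members. No chromosome was left out of the count over all windows. The windows of 4 members that recur in the results are printed 5′ to 3′ on the strand of the gene, with each CG in capitals, because they span the range from CpG-rich to CpG-poor. Cdh22 (chr2:165234738-165234987, minus strand) held 30 CpGs, which 5.94% of all windows reach, and Pcdh18 (chr3:49757317-49757566, minus strand) held 23, which 13.3% reach. Cdh23 (chr10:60696491-60696740, minus strand) held 5, which 55.6% reach, and Cdh10 (chr15:18820079-18820328, plus strand) held 2, which 81.2% reach.
Cdh22: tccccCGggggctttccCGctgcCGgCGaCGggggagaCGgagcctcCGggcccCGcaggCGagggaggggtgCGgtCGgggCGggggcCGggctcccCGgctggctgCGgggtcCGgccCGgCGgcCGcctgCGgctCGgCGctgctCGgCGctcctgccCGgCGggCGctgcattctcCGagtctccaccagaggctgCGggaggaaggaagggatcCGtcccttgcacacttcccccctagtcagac
Pcdh18: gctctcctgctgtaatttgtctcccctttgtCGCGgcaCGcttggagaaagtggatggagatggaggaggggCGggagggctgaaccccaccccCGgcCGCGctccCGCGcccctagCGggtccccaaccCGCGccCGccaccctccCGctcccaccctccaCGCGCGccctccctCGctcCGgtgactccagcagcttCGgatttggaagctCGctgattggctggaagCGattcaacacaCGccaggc
Cdh23: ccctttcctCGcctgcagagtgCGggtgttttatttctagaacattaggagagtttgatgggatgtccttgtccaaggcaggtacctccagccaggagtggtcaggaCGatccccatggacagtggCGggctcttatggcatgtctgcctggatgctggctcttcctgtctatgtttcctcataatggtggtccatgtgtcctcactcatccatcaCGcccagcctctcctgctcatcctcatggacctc
Cdh10: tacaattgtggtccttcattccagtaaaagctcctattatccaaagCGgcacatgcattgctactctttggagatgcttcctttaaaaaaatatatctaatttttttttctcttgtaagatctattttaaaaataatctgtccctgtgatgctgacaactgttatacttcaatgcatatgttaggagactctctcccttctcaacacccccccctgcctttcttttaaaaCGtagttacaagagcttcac

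Among the CpG-rich windows, log2 fold changes were positive, negative or near 0. The Cdh22 window belongs to a gene with a log2 fold change of 0.51 and the Pcdh18 window to one of -0.96, and neither gene was called in the main fit. The windows of Cdh24 and Pcdh10 held 22 CpGs each, that of Pcdh17 held 21 and that of Cdh8 held 20, and these 4 genes had log2 fold changes between -0.08 and 0.03. Cdh8 and Pcdh10 were dim, at mean log2 signals of 6.7 and 7.3 in shKdm2b cells, so that small differences there do not limit the change in mRNA. No measurement of KDM2B binding or DNA methylation was used here, so that these counts describe the sequences alone. Whether CpG content and the change in signal are linked was not tested.

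Among the 5 type I classical cadherins, N-cadherin mRNA fell, P-cadherin mRNA was moderately higher and E-cadherin mRNA stayed bright with a small difference. Cdh2 read 8.12, 8.67, 8.54 and 8.40 in shKdm2b replicates 1 to 4, against 11.55, 10.09, 10.53 and 10.25 in shScr replicates 1 to 4. Every shKdm2b array was thus more than 1 log2 unit below every shScr array, and shScr replicate 1 was the highest of all. This amounts to a log2 fold change of -2.17 and a 4.51-fold lower signal (adjusted p = 0.00556 from limma, standard error 0.29). Its 95% confidence interval ran from -2.84 to -1.5. It was -1.86 without shScr replicate 1 (adjusted p = 0.00211 from limma), and Cdh2 was past the adjusted p in all 15 refits, with log2 fold changes of -2.35 to -1.86. In such bulk RNA, fewer cells that express a gene and less RNA per cell cannot be told apart.

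Markers of neural cells, a cell type known for N-cadherin, moved with Cdh2 in part, and their log2 fold changes had no common sign (5 positive, 4 negative, median 0.05). Of 9 neural markers, 2 were called lower and 0 higher, against 1.43% and 1.42% of all genes. The mean log2 signal of the list was 8.85 to 8.99 on the shKdm2b arrays and 9.15 to 9.38 on the shScr arrays. Neurod1, a transcription factor of differentiating neurons, had a log2 fold change of -1.59 (adjusted p = 0.00859 from limma), and Pax6, a transcription factor of neural progenitors, one of -1.01 (adjusted p = 0.0212 from limma). The call on Pax6 was lost without shKdm2b replicate 2 or 4 or shScr replicate 2 (adjusted p = 0.0619 to 0.0683 from limma), and in passages 28 to 30 with passage as a block (adjusted p = 0.0697). Nes, an intermediate filament gene of neural progenitors, differed by -0.78. It missed the adjusted p in the main fit, to all probe sets and arrays without a block (adjusted p = 0.0512 from limma). It met both thresholds in the paired fit, where the replicate number was a block (adjusted p = 0.0376 from limma). Other refits were not examined for Nes. Sox1, Tubb3 and Dcx, which also mark neural cells, had positive log2 fold changes of 0.18, 0.29 and 0.09 (adjusted p = 0.211, 0.0813 and 0.379), and for Tubb3 every shKdm2b array lay above every shScr array. On shScr replicate 1, where Cdh2 was highest, the neural list was at its lowest among the shScr arrays. The part of neural cells in the difference of Cdh2 was not tested.

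Cdh3 encodes P-cadherin, an epithelial cadherin of placenta and skin. Its log2 signal was 11.73, 11.51, 11.37 and 11.66 in shKdm2b replicates 1 to 4, against 11.00, 11.07, 11.26 and 11.15 in shScr replicates 1 to 4, with no overlap between the groups. The difference came to 0.45 (adjusted p = 0.0244 from limma, standard error 0.09, interval 0.24 to 0.66 at 95%), a 1.36-fold higher signal that did not reach the fold minimum. The adjusted p rose to between 0.0605 and 0.0727 without shKdm2b replicate 2 or 4 or shScr replicate 2 or 4.

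Cdh1 encodes E-cadherin, on which the compact colonies of ESCs depend. It read 13.15, 13.04, 12.99 and 13.02 in shKdm2b replicates 1 to 4, against 13.25, 13.21, 13.33 and 13.23 in shScr replicates 1 to 4. The groups did not overlap, but they differed by only -0.21 (adjusted p = 0.0618 from limma, standard error 0.06, interval -0.34 to -0.08 at 95%), which misses the threshold. It passed in 5 of the 15 refits, and the interval excludes a 1.5-fold change of the signal in either direction. Cdh3 and Cdh1 are neighbours on chromosome 8, with 0 protein-coding genes between them in the RefSeq annotation, and their differences had opposite signs.

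The remaining type I genes differed little. Cdh4, which encodes R-cadherin of the retina and brain, read 8.97, 9.08, 9.13 and 8.91 in shKdm2b cells, against 8.93, 8.94, 9.06 and 9.01 in shScr cells (log2 fold change 0.04, adjusted p = 0.752 from limma). Cdh15, the M-cadherin of muscle precursors, had a log2 fold change of 0.04 (adjusted p = 0.699 from limma). Both intervals lay within 0.19 of 0 on the log2 scale.

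**Figure D3:**
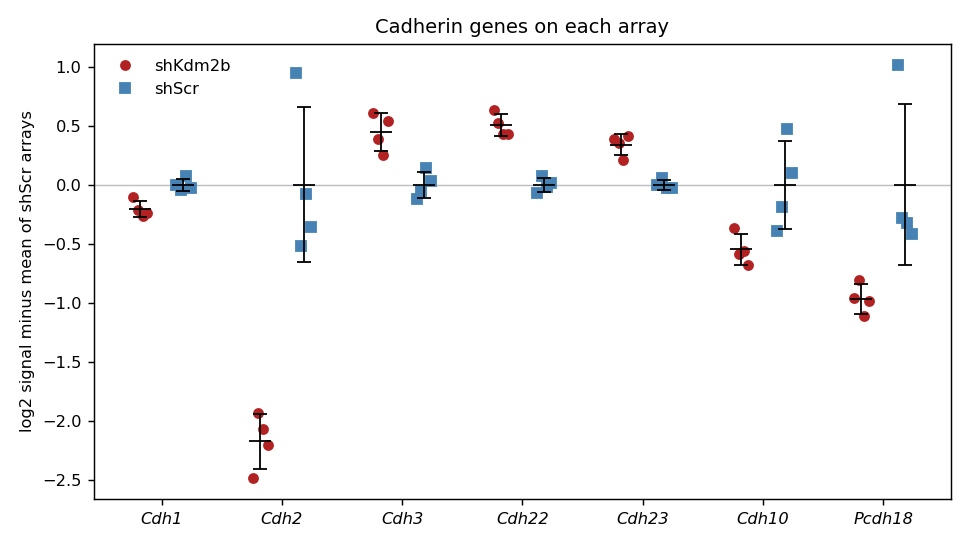
Log2 signal of 7 members on each array, relative to the mean of the shScr arrays for the same probe set (y axis), with red circles for shKdm2b arrays, blue squares for shScr arrays, and bars for the mean and SD (n = 4 per group). The shKdm2b arrays lie wholly below the shScr arrays for Cdh1, Cdh2 and Pcdh18 and wholly above them for Cdh3, Cdh22 and Cdh23. For Cdh10 the groups touch.

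The 13 type II classical cadherins gave 1 member higher past the adjusted p, or 7.69%, against 5.93% of all genes. They gave 0 lower, against 4.80%. Of the 13, 10 differed by less than 0.15 on the log2 scale. Cdh22, a cadherin described in rat pituitary and brain, had the largest positive log2 fold change of all 57 members. It read 9.03, 8.92, 8.83 and 8.83 in shKdm2b replicates 1 to 4, against 8.33, 8.47, 8.38 and 8.41 in shScr replicates 1 to 4. Every shKdm2b array was above every shScr array, and no array stood apart within its group. The groups differed by 0.51 (adjusted p = 0.00414 from limma, standard error 0.06, interval 0.36 to 0.65 at 95%), a 1.42-fold higher signal that falls short of the fold minimum, although the interval reaches past it. Its promoter window is the CpG-rich one printed above.

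Cdh10, a cadherin of brain, read 7.85, 7.63, 7.66 and 7.54 in shKdm2b replicates 1 to 4, against 7.83, 8.03, 8.69 and 8.32 in shScr replicates 1 to 4. The groups overlapped only through shKdm2b replicate 1 and shScr replicate 1. They differed by -0.55 (adjusted p = 0.0839 from limma, standard error 0.17), and by -0.68 without shScr replicate 1 (adjusted p = 0.0390 from limma), so that the gene met the rule for a lower call only in that fit and with array weights.

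Cdh11, the OB-cadherin of osteoblasts and other mesenchyme, read 7.42, 7.54, 7.52 and 7.53 in shKdm2b replicates 1 to 4, against 8.77, 7.76, 7.58 and 7.65 in shScr replicates 1 to 4. The groups did not overlap, but most of the difference lay in 1 array. The mean difference was -0.44 (adjusted p = 0.284 from limma, standard error 0.24), and it was -0.16 without shScr replicate 1 (adjusted p = 0.185 from limma).

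Cdh9, a cadherin of brain synapses, varied more within the groups than any other member of the class and hardly between them. It read 7.32, 8.23, 8.68 and 7.76 in shKdm2b replicates 1 to 4, against 7.24, 8.24, 8.80 and 8.26 in shScr replicates 1 to 4. In both groups replicate 1 was the lowest and replicate 3 the highest, over ranges of 1.36 in shKdm2b cells and 1.56 in shScr cells. Between the groups it differed by -0.14 (adjusted p = 0.837 from limma), with the widest 95% interval of the class, -0.98 to 0.70.

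Cdh5, the VE-cadherin of endothelial junctions, read 8.12, 8.09, 7.92 and 8.03 in shKdm2b cells, against 7.92, 8.08, 7.84 and 7.98 in shScr cells. The groups overlapped, and the log2 fold change was 0.09 (adjusted p = 0.473 from limma). Cdh6 of the developing kidney, Cdh7, Cdh8, Cdh12, Cdh18, Cdh19, Cdh20 and Cdh24 had log2 fold changes of -0.08 to 0.11 and adjusted p of 0.345 or more. Cdh24, among the 5 members brightest on the shScr arrays, read 8.98, 8.82, 8.79 and 8.92 in shKdm2b cells, against 8.80, 8.99, 9.03 and 9.02 in shScr cells, with overlap.

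Of the 5 other cadherins, Cdh23 was higher past the adjusted p, as were 5.93% of all genes, and the others were not. Cdh23 encodes a very long cadherin that forms the tip links of inner ear hair cells together with the protein of Pcdh15. It read 8.73, 8.69, 8.55 and 8.75 in shKdm2b replicates 1 to 4, against 8.34, 8.40, 8.31 and 8.31 in shScr replicates 1 to 4, with no overlap. This is a log2 fold change of 0.34 (adjusted p = 0.0153 from limma, standard error 0.06, interval 0.20 to 0.48 at 95%), a 1.26-fold higher signal whose interval lies below a 1.5-fold change. The adjusted p was 0.0552 without shKdm2b replicate 2 and 0.0540 without shScr replicate 3.

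Its partner Pcdh15 read 7.42, 7.24, 7.00 and 7.24 in shKdm2b replicates 1 to 4, against 7.01, 7.13, 7.11 and 7.11 in shScr replicates 1 to 4. The groups overlapped, with a log2 fold change of 0.13 (adjusted p = 0.362 from limma). Cdh13, a cadherin anchored by a lipid in place of a membrane-spanning segment, Cdh16 of kidney, Cdh17 of intestine and Cdh26 had log2 fold changes of 0.06 to 0.08, and adjusted p of 0.395 or more.

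Among the 9 protocadherins of the delta group, none was called, and the largest difference was that of Pcdh18. The delta proteins are encoded by separate genes and guide cell sorting and axon growth. Pcdh18, of the delta-2 class, read 7.33, 7.49, 7.18 and 7.31 in shKdm2b replicates 1 to 4, against 9.31, 8.01, 7.97 and 7.88 in shScr replicates 1 to 4. Every shKdm2b array was below every shScr array, and shScr replicate 1 was 1.36 above the mean of the other shScr arrays. Over all arrays the difference was -0.96 (adjusted p = 0.0800 from limma, standard error 0.29, interval -1.63 to -0.30 at 95%). Without shScr replicate 1 the difference was smaller, at -0.62, and the adjusted p was 0.00865, so that the gene met the rule only in that fit.

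Pcdh7, of the delta-1 class, read 6.89, 6.95, 6.82 and 6.89 in shKdm2b replicates 1 to 4, against 8.06, 7.09, 6.90 and 6.86 in shScr replicates 1 to 4. Apart from shScr replicate 1 the groups lay at about the same signal. The difference was -0.34 (adjusted p = 0.407 from limma) and came to -0.06 without that array (adjusted p = 0.654 from limma). Pcdh1, of the same class, read 8.41, 8.28, 8.28 and 8.24 in shKdm2b cells, against 8.52, 8.20, 8.78 and 8.59 in shScr cells (log2 fold change -0.22, adjusted p = 0.262 from limma). Pcdh8, known as paraxial protocadherin in frog embryos, had a log2 fold change of -0.13, and Pcdh9, Pcdh10, Pcdh11x, Pcdh17 and Pcdh19 lay between -0.04 and 0.03. Of the single protocadherins outside these classes, Pcdh12 of endothelium had a log2 fold change of 0.11 and Pcdh20 one of -0.06.

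The shScr array of replicate 1 differed from the other shScr arrays in several of these genes. It was more than 0.5 above the mean of the other 3 in 4 members, Cdh2, Pcdh18, Cdh11 and Pcdh7, or 7.02% of members against 2.67% of all genes. It was more than 0.5 below that mean in Cdh9 and Cdh10, or 3.51% against 0.793%. This array was the highest of the shScr arrays in 29.3% of all genes, in 6 of 9 fibroblast markers, 6 of 9 pluripotency markers, 5 of 7 markers of mesendoderm and mesoderm, 2 of 8 of primitive endoderm, 2 of 6 of endothelium and 1 of 9 of neural cells. For the fibroblast list the mean log2 signal was 8.64 to 8.88 on the shKdm2b arrays, 8.93 on shScr replicate 1 and 8.59 to 8.69 on the other shScr arrays. Col1a1, the chain of type I collagen, read 10.37 there and 9.41 to 9.63 on the other shScr arrays, and Postn, which encodes the matrix protein periostin, read 7.54 there and 6.12 to 6.55. Col3a1 and Lum, also of fibroblasts, read 8.77 and 5.53 there and 8.63 to 8.80 and 5.37 to 5.47 on the other shScr arrays. The fibroblast marker Thy1 was called higher in shKdm2b cells (log2 fold change 0.72, adjusted p = 0.000475 from limma). The part of such cells in the values of that array was not tested.

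**Figure D4:**
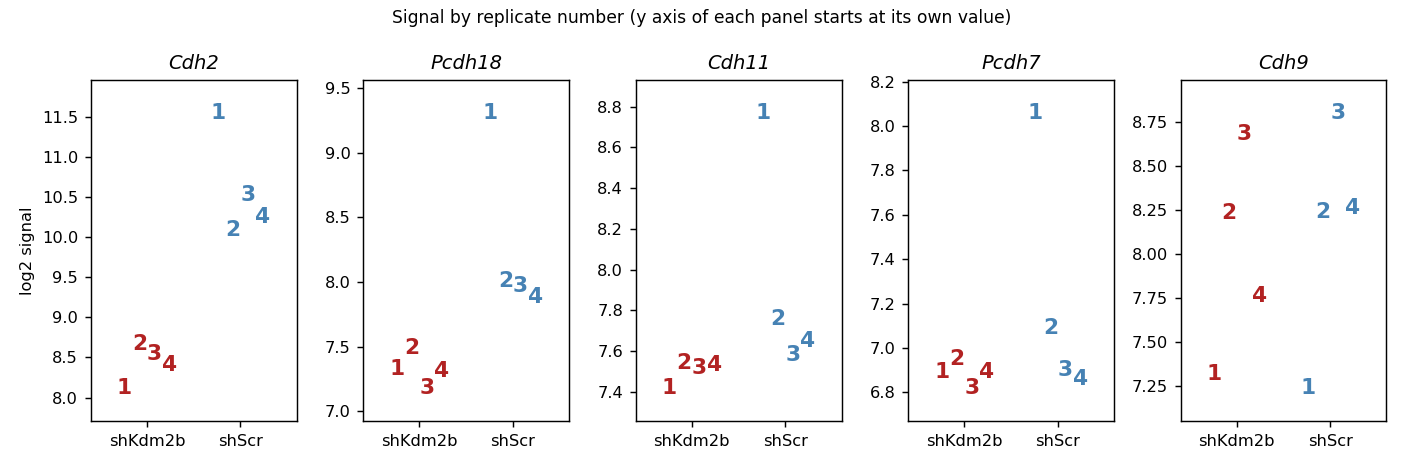
Log2 signal (y axis, its own range in each panel) of Cdh2, Pcdh18, Cdh11, Pcdh7 and Cdh9, with each array drawn as its replicate number, shKdm2b in red on the left and shScr in blue on the right. In the first 4 panels shScr replicate 1 lies above the other shScr arrays, by 1.26 for Cdh2 and 1.36 for Pcdh18 relative to their mean. For Cdh9, replicate 1 is the lowest and replicate 3 the highest in both groups.

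The 22 clustered protocadherins with probe sets of their own were all Pcdhb genes, which lie side by side as single-exon genes. None differed in signal past the adjusted p. Neurons choose among such genes, so that neighbouring cells carry different sets. At an unadjusted p under 0.05 from limma the count was 0 in both directions as well, against 16.8% of all genes higher and 13.6% lower. Their log2 fold changes ran from -0.14 (Pcdhb22) to 0.15 (Pcdhb11), with a median of 0.02, 13 positive and 9 negative. All 22 confidence intervals lay within a 1.5-fold change, and the outermost bounds were -0.33 and 0.38. Pcdhb11 read 6.91, 6.70, 6.69 and 6.58 in shKdm2b replicates 1 to 4, against 6.51, 6.67, 6.59 and 6.51 in shScr replicates 1 to 4, with overlap (adjusted p = 0.262 from limma).

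These probe sets were among the dimmest of the members. Their mean log2 signals ran from 4.59 to 7.83, all 22 were below the median of all probe sets and 16 below the lower quartile. Their means over the list were 6.66, 6.51, 6.44 and 6.45 in shKdm2b replicates 1 to 4, against 6.49, 6.54, 6.47 and 6.47 in shScr replicates 1 to 4. In 17 of the 22 genes replicate 1 was the highest of the shKdm2b arrays, which held for 40 of all 57 members, or 70.2%, against 47.4% of all genes. Pcdhb genes are close copies of each other, and how far their probe sets read neighbouring copies was not tested. No gene of the Pcdha and Pcdhg clusters had a probe set of its own, so that 36 gene symbols of the family were not analysed here as members.

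Of 18 genes for catenins and other junction partners of cadherins, 1 was called higher and 1 lower, against 1.42% and 1.43% of all genes. The shKdm2b arrays lay wholly above the shScr arrays in 2 of the 18 and wholly below in 4, Ctnnd1, Ctnnd2, Nectin2 and Nectin3. Over all genes the shares were 11.8% above and 9.18% below. Ctnnb1, the beta-catenin that binds the cadherin tail, read 13.51, 13.60, 13.56 and 13.55 in shKdm2b cells, against 13.54, 13.55, 13.53 and 13.57 in shScr cells (log2 fold change 0.01, adjusted p = 0.948 from limma). Ctnna1, the alpha-catenin, and Jup, the plakoglobin, had log2 fold changes of -0.04 and -0.10. Arvcf, a relative of p120-catenin, read 10.67, 10.69, 10.34 and 10.49 in shKdm2b cells, against 10.07, 9.85, 9.82 and 9.84 in shScr cells, and rose by 1.57-fold (log2 fold change 0.65, standard error 0.09, adjusted p = 0.00707 from limma). Ctnnd1, p120-catenin itself, which keeps cadherins at the cell surface, read 11.86, 12.12, 12.18 and 12.20 in shKdm2b cells, against 12.43, 12.45, 12.54 and 12.66 in shScr cells. Its log2 fold change was -0.43 (adjusted p = 0.0254 from limma), under the fold minimum, and the adjusted p stayed under 0.05 in 4 of the 8 fits that left out an array. Nectin3, an adhesion protein that forms junctions beside cadherins, read 10.26, 10.20, 10.30 and 10.22 in shKdm2b cells, against 10.86, 10.78, 10.95 and 10.93 in shScr cells, and was called lower (log2 fold change -0.64, standard error 0.06, adjusted p = 0.00108 from limma). The calls on Arvcf and Nectin3 were kept in all 8 fits that left out an array and lost in passages 28 to 30 with passage as a block, where the log2 fold changes were 0.59 and -0.62 (adjusted p = 0.0587 and 0.0616 from limma).

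Of 24 other genes of the cadherin superfamily, 1 was called higher and 0 lower, against 1.42% and 1.43% of all genes. Clstn1, which encodes the transport adaptor calsyntenin 1, read 11.66, 11.32, 11.16 and 11.58 in shKdm2b cells, against 10.88, 10.73, 10.77 and 10.71 in shScr cells. Its log2 fold change was 0.66 (standard error 0.11, adjusted p = 0.0123 from limma), and without shKdm2b replicate 1 it was 0.58, just under the fold minimum. In passages 28 to 30 with passage as a block it was 0.56 (adjusted p = 0.101), short of both thresholds. Fat1, a giant cadherin that shapes actin at cell contacts, read 11.53, 11.75, 11.66 and 11.74 in shKdm2b cells, against 11.95, 11.99, 12.32 and 12.08 in shScr cells (log2 fold change -0.42, adjusted p = 0.0289 from limma). Its adjusted p stayed under 0.05 in 2 of the 8 fits that left out an array. Fat3 had a log2 fold change of -0.25 (adjusted p = 0.0438 from limma) and kept it in 0 of the 8.

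Among 9 transcriptional repressors known to act on Cdh1, Zeb1 was called higher and 0 were called lower, against 1.42% and 1.43% of all genes. Zeb1 read 10.21, 10.68, 10.61 and 10.31 in shKdm2b cells, against 9.78, 9.78, 9.31 and 9.38 in shScr cells, with no overlap. Its log2 difference was 0.89 (adjusted p = 0.0116 from limma, standard error 0.15), a 1.85-fold higher signal that was called in all 8 fits that left out an array. The other 8 repressors had negative log2 fold changes, from -0.70 (Zeb2) to -0.06 (Tcf4), as had 7642 of all 19938 genes. In 6 of the 9 repressors shScr replicate 1 was the highest of the shScr arrays. Snai3 had a log2 fold change of -0.55 (adjusted p = 0.0389 from limma) and Snai1 one of -0.29 (adjusted p = 0.0398 from limma), both under the fold minimum. Their adjusted p stayed under 0.05 in 2 and 1 of the 8 fits, and Snai3 met both thresholds in its 2 and with array weights. Zeb2 read 7.85, 7.73, 7.93 and 7.67 in shKdm2b cells, against 9.35, 8.32, 8.05 and 8.25 in shScr cells, and differed by -0.70 (adjusted p = 0.123 from limma). On shScr replicate 1 Zeb2 and Snai2 (9.14, against 7.98 to 8.48 on the other shScr arrays) were high together with Cdh2.

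None of 11 genes for enzymes that cut cadherins or mature them was called in the main fit. Of the 11, 2 were higher and 0 lower past the adjusted p, against 5.93% and 4.80% of all genes. Adam10, the sheddase that releases the outer parts of E-cadherin and N-cadherin, read 10.52, 10.51, 10.33 and 10.32 in shKdm2b cells, against 10.22, 9.83, 9.71 and 9.64 in shScr cells. Its log2 fold change was 0.57 (standard error 0.13, adjusted p = 0.0298 from limma), a 1.48-fold higher signal. Aph1a, a subunit of gamma-secretase, had a log2 fold change of 0.25 (adjusted p = 0.0297 from limma). Each stayed under an adjusted p of 0.05 in 2 of the 8 fits that left out an array. Adam10 met both thresholds in its 2, without shKdm2b replicate 3 (0.60) or shScr replicate 1 (0.69), and with array weights (0.68).

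None of 13 regulators of the protocadherin clusters was called in the main fit, and Dnmt3b was called lower with the replicate number as a block. Other refits were not examined for Dnmt3b. Setdb1, a histone methyltransferase, read 11.53, 11.65, 11.77 and 11.60 in shKdm2b cells, against 11.88, 11.89, 11.95 and 11.97 in shScr cells (log2 fold change -0.29, adjusted p = 0.0302 from limma), and passed in 2 of the 8 fits that left out an array. Smc1a, a subunit of cohesin, had a log2 fold change of 0.24 (adjusted p = 0.0582 from limma), and Ctcf, the insulator protein that loops the clusters, one of -0.18 (adjusted p = 0.246 from limma). Dnmt3b, a DNA methyltransferase, read 11.24, 11.66, 12.06 and 11.71 in shKdm2b cells, against 11.81, 12.40, 12.92 and 12.81 in shScr cells (log2 fold change -0.81, adjusted p = 0.0884 from limma). Between arrays of the same replicate number, which were of different passages, it differed by -0.57, -0.73, -0.86 and -1.09. With the number as a block the adjusted p was 0.0103 from limma. In order of passage from 28 to 30, Dnmt3b read 11.66, 12.06 and 11.71 in shKdm2b cells. The shScr arrays of the same passages read 11.81, 12.40 and 12.92, so that the gap was less even when matched by passage.

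**Figure D5:**
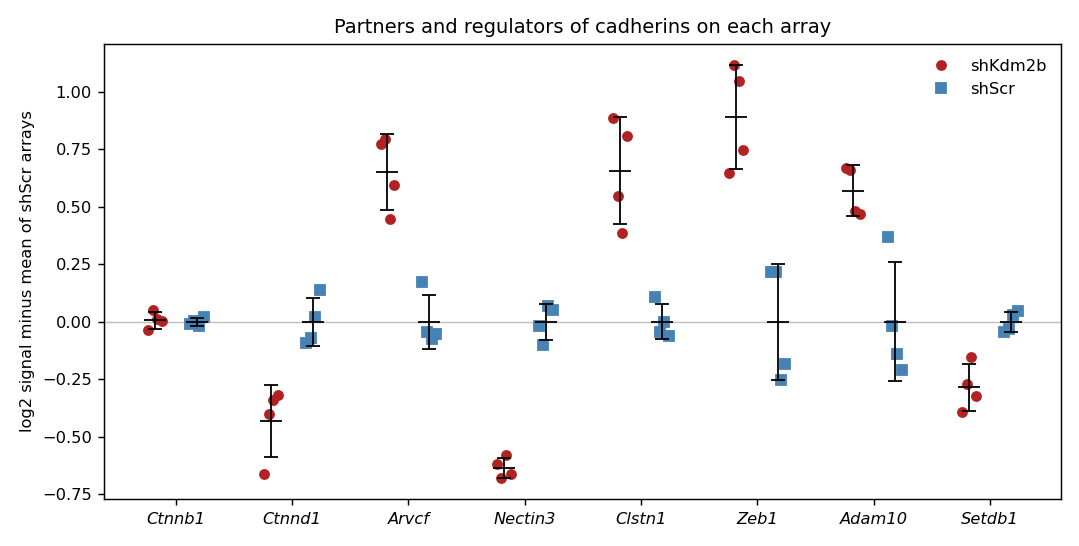
Log2 signal of 8 partners and regulators of cadherins on each array, relative to the mean of the shScr arrays for the same probe set (y axis), with red circles for shKdm2b arrays, blue squares for shScr arrays, and bars for the mean and SD (n = 4 per group). Arvcf, Clstn1 and Zeb1 lie higher and Nectin3 lower in shKdm2b cells with no overlap, and Ctnnb1 does not differ beyond the spread of its arrays.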

How the data were processed

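Total RNA of 4 shKdm2b and 4 shScr samples was read on 1 array each. The authors deposited log2 values per probe set, made from the probe intensities by RMA in oligo 1.18.1 (background correction, quantile normalization and summary of probes). The genome build behind the probe sets is not given in the sources used here. Changes shared by most transcripts are lost in this step, and array medians lay between 8.47 and 8.53. The number of arrays limits the precision.

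Probe sets were named from the platform annotation, with symbols updated through RefSeq (GRCm38.p6), which was used for names, chromosomes and promoter sequence. Of 35556 probe sets, 21789 name 1 gene. Probe sets naming several genes gave no member. limma 3.58.1 in R 4.3.3 (lmFit, eBayes) was fitted to all probe sets without a block, with Benjamini-Hochberg adjustment, after tests on simulated data. Figures were drawn with matplotlib 3.10.9. A gene with several probe sets is shown by its most significant one.

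The members and lists were chosen with earlier results of these data known. Named were Cdh1, Cdh2, Cdh3 and Cdh5, members called or past the adjusted p, the 5 highest and 5 lowest fold changes, the 5 members brightest on shScr arrays, and for each list the called genes and the 2 with the smallest p. Other genes were named after their values were seen. The marker lists were those of pluripotent, fibroblast, neural, mesendoderm and mesoderm, primitive endoderm and endothelial cells.

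Both groups use replicate numbers 1 to 4, and arrays with the same number were of different passages. After subtraction of the group mean, arrays with the same number correlated at 0.239, 0.118, 0.355 and 0.222, each above the limit of 0.1, and the numbers were therefore treated as pairs in the blocked alternative. Alternatives were the replicate block, each array left out, removal of dim probe sets, median centring, repeated quantile normalization, an intensity trend, array weights, no fold minimum, 1 probe set per gene, passages 28 to 30 with passage as a block, and the platform's symbols.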

Additional observations from a re-analysis of the deposited data

Results flagged for a closer look

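In 4 of 50 groups of 4 arrays tested, 1 array lay far from the other 3 by Dixon's criterion, and chance alone sets off about 1 in 20. The array was shScr replicate 1 each time. For Pcdh18 the gap to the nearest array took up 0.913 of the group's range (9.31, against 7.88 to 8.01 on the other shScr arrays), for Cdh11 0.856 (8.77, against 7.58 to 7.76) and for Arvcf 0.886 (10.07, against 9.82 to 9.85). For Pcdh15 that array was the lowest, with 0.8294 of the range (7.01, against 7.11 to 7.13).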

How the results depend on the processing

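The count of members called lower was 1 in most fits. It ran from 1 to 3 when each array was left out in turn and was 3 without shScr replicate 1 (Cdh2, Cdh10 and Pcdh18), and it was 2 with array weights (Cdh2 and Cdh10). The count of members called higher was 0 in each fit with the fold minimum, and 3 (Cdh22, Cdh23 and Cdh3) with an adjusted p and no fold minimum. In the paired fit (replicate block) 0 members were higher and 1 lower, and the block changed no other member's call. Over the genes of the lists, a comparison added after seeing the data, it ended 0 calls and added 4 (Dnmt3b, Nes, Eomes and Dab2). Of the fits of single named members, 192 kept their direction and side of the threshold, 8 moved past it, 9 fell short of it and 0 reversed. Among those, Cdh22, Cdh23 and Cdh3 fell short in passages 28 to 30 with passage as a block (adjusted p = 0.0918, 0.195 and 0.112 from limma), a fit with fewer arrays that called 72 genes lower in place of 285. Of 18 list genes past the adjusted p, 3 (Zeb1, Thy1 and Neurod1) stayed past it there. Cdh1 passed without shKdm2b replicate 1, without dim probe sets, with median centring, with an intensity trend and with array weights (adjusted p = 0.00947 to 0.0488 from limma). What moved these calls was not tested. Dim probe sets limit most statements on protocadherins.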

Other observations

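Probe sets that name several genes stood outside the comparison. One names 14 genes of the Pcdha cluster at once and read 7.82, 7.68, 7.61 and 7.68 in shKdm2b cells, against 7.67, 7.59, 7.50 and 7.50 in shScr cells (log2 fold change 0.14, adjusted p = 0.238 from limma). A further 3 carry the name Cdh11 together with 2 other genes. They read 12.07 to 13.37 in shKdm2b cells and 12.28 to 13.42 in shScr cells, with log2 fold changes of -0.12, -0.11 and -0.08. None of the 3 had its highest shScr signal on replicate 1, unlike the probe set that names Cdh11 alone. That probe set was far dimmer, at 7.42 to 7.54 in shKdm2b cells and 7.58 to 8.77 in shScr cells. Which of their named genes the 3 read was not tested, so that they are no check on Cdh11.

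Of the 57 members, 4 had a second probe set of their own. The pair for Pcdh15 gave log2 fold changes of 0.13 and 0.12, that for Cdh18 -0.07 and 0.03, that for Cdh24 -0.08 and 0.00, and that for Pcdh9 -0.01 and 0.00. In none of the 4 did either probe set pass the adjusted p.

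Markers of other cells were mixed. Over all genes, 1.43% were called lower and 1.42% higher. Of 6 endothelial markers, Tek, a receptor of angiopoietin, was called lower (log2 fold change -0.77, adjusted p = 0.0288 from limma, with the call kept in 4 of 8 fits that left out an array), while Pecam1, which ESCs also express, had a log2 fold change of 0.57 (adjusted p = 0.0123 from limma). Of 7 mesendoderm and mesoderm markers and 8 markers of primitive endoderm, 0 were called in the main fit. Apart from the replicate block, refits were examined only for list genes past the adjusted p in the main fit. With the replicate number as a block Eomes, a mesendoderm transcription factor, was called higher (log2 fold change 0.77, adjusted p = 0.0491, against 0.0533 without it) and Dab2, an endocytic adaptor of primitive endoderm, lower (log2 fold change -0.95, adjusted p = 0.0382, against 0.0525 without it). Sox7 of primitive endoderm had a log2 fold change of 0.40 (adjusted p = 0.0279 from limma), past the adjusted p in 2 of the 8 fits.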
